A study of Mus musculus with 12 samples.

Results

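The expression of 9 complement genes was examined in whole lungs of 12 mice given lipopolysaccharide (LPS), the cell wall component of Gram-negative bacteria used to induce acute lung injury. The genes were chosen by name: C1ra, C1s1, C4b, C2, C3, Cfb, Cfd, Cfp and Serping1, which are 9 of the 55414 genes in the table, and each name matched 1 row. The lungs were taken on day 4. The 6 IL-10 B-KO mice (knockout below) carried a floxed Il10 gene and mb1-cre, so that Il10 is deleted in cells that express Cre from the B cell gene Cd79a (also called Mb1). The 6 IL-10 B-WT mice (wild type below) were the comparison. All 12 mice had a C57BL/6J background and received LPS, and no lung without LPS is part of the series, so that a level here cannot be read as a response to LPS. Age and sex are not given in the sources used here. The deletion acts from an early stage of B cell development and in all B cells of the animal, not only in those of the lung, and whether the wild type mice carried the Cre allele is not given in the sources used here. Lavage fluid was drawn in this model after perfusion and before the lungs were excised, which can remove free airway cells. In whole lung, a lower share of a cell type and less RNA per cell cannot be told apart.

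Complement is a cascade of plasma and tissue proteins that marks microbes and damaged cells. The classical pathway begins when C1q binds antibody or other surface patterns and activates the proteases C1r and C1s, which cleave C4 and C2 into the classical C3 convertase. The alternative pathway forms a second convertase from C3 and factor B, which is cleaved by factor D and stabilized by properdin, and it amplifies C3 cleavage on surfaces. The C1 inhibitor, encoded by Serping1, blocks C1r and C1s. Most circulating complement is made in liver, while lung epithelium, fibroblasts and macrophages also make several components. Factor D is the same protein as adipsin, which was described in fat cells.

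The genes lie at 6 loci of the mouse genome (GRCm38 coordinates from GENCODE). C1ra occupies chr6:124512405-124523443 on the plus strand, and its neighbour C1s1 lies 6901 bases downstream at chr6:124530345-124542359 on the minus strand. C4b (chr17:34728380-34743882), Cfb (chr17:34856374-34862518) and C2 (chr17:34862604-34898265) lie on the minus strand of the major histocompatibility region, where only 85 bases separate the annotated ends of Cfb and C2. C3 lies elsewhere on the same chromosome (chr17:57203970-57228136, minus strand). Cfd (chr10:79890853-79892655, plus strand), Cfp (chrX:20925454-20931555, minus strand) and Serping1 (chr2:84765387-84775444, minus strand) stand alone. The annotated gene Gm20547 spans Cfb and part of C2 on the same strand and was listed at no more than 0.47 TPM in any lung, and Zbtb12 overlaps C2 on the opposite strand at 2.92 to 8.14 TPM, a level near that of C2. The strand setting of the counting is not given in the sources used here, so that reads of Zbtb12 and C2 may not have been told apart. C4b shares 95.9% of its transcript with C4a, C1ra 97.9% with C1rb and C1s1 95.5% with C1s2. C1rb and C1s2 were listed at no more than 0.58 TPM and 0.44 TPM in any lung and C4a at 2.05 to 5.90 TPM, and how RSEM shared reads between these copies cannot be seen from TPM.

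Promoter windows of 300 bases, 250 before and 50 after the start annotated by RefSeq, are shown for 4 of the genes (GRCm38.p6, each read 5′ to 3′ on the strand of its gene). The RefSeq start of C1ra lies inside the GENCODE gene given above, so that most of its window is within that gene. C1ra, C1s1 and C3 are shown because their levels varied together across lungs, and Cfd because its level did not follow theirs. The windows are chr6:124512371-124512670 (plus strand) for C1ra, chr6:124542310-124542609 (minus strand) for C1s1, chr17:57228087-57228386 (minus strand) for C3 and chr10:79890603-79890902 (plus strand) for Cfd. Capitals mark every match to 6 searched motifs.
C1ra: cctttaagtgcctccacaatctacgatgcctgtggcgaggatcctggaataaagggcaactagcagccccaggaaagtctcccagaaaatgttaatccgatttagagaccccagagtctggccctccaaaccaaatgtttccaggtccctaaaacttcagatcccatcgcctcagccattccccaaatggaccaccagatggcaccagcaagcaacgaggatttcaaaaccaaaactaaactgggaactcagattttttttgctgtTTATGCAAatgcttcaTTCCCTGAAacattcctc
C1s1: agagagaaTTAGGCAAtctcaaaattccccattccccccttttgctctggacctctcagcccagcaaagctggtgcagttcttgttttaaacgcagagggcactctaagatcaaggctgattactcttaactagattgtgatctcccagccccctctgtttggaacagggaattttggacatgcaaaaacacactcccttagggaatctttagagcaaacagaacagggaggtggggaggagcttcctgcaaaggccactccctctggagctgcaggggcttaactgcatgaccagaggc
C3: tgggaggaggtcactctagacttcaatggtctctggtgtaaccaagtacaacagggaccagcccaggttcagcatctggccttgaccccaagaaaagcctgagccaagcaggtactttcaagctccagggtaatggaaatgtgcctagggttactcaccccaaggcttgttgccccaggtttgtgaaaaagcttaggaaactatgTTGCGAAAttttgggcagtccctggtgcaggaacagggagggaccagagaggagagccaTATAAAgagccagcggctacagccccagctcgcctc
Cfd: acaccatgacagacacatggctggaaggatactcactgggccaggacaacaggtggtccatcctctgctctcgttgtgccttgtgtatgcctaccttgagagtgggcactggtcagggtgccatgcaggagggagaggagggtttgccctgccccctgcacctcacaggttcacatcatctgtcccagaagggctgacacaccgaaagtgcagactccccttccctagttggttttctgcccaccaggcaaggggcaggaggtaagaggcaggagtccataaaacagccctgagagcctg
The motifs were TTGCNNAA for C/EBP, TTCNNNGAA for STAT, GAAANNGAA for IRF, GGGANNNTC for NF-kB, GAGGAAG for PU.1, each on both strands, and TATAAA on the gene's strand. In the C3 window, TTGCGAAA matched the C/EBP letters, and TATAAA lay 14 to 19 bases past the RefSeq start. In the C1ra window, TTATGCAA matched the C/EBP letters on the opposite strand and TTCCCTGAA matched the STAT letters, both past the RefSeq start, and in the C1s1 window TTAGGCAA matched the C/EBP letters on the opposite strand. The Cfd window held no match. A window for Cfp, and a second for C1s1 from another start, held no match either. Of all 32851 promoter windows, 10.8% held the C/EBP letters, 8.30% the STAT letters, 8.56% the IRF letters, 14.5% the NF-kB letters, 13.6% the PU.1 letters and 8.32% the TATAAA letters. These are matches of letters and do not show binding.

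The 12 libraries were deposited as TPM, in which reads are divided by gene length and each library is scaled to the same total, so that the depth of each lung is unknown. The columns summed to between 991646 and 994430 TPM. Il10 itself was listed at 0 to 0.88 TPM in wild type and 0 to 0.58 TPM in knockout lungs, too low to check the deletion. Cd79a was at 15.3 to 259 TPM in wild type and 0 to 5.73 TPM in knockout lungs, and the summed TPM of 5 B cell markers at 59.2 to 658 and 3.37 to 64.0, so that the knockout lungs also held less B cell RNA. The markers Sftpc, Sftpb, Ager and Scgb1a1 summed to 20077 TPM or more in every lung, as the lung label implies. The summed TPM of 6 acute phase and NF-kB response genes was 11266 in wild type replicate 1 and 78.5 to 1219 in the other wild type lungs, and 266 in knockout replicate 2 and 4805 to 14286 in the other knockout lungs. wild type replicate 1 and knockout replicate 2 thus stood apart from their own genotypes, and results are also given without them.

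No complement gene among the 9 passed the test between knockout and wild type lungs. In limma on log2(TPM + 1), 0 of 9 were called (adjusted p of 0.05 or less and a log2 fold change of 1 or more in size), beside 0.495% of the 15148 genes tested (75 genes). At an unadjusted p of at most 0.05, 1 of 9 was higher in knockout lungs, Cfp, beside 6.83% of all genes, and 0 of 9 were lower, beside 5.71%. The groups overlapped in all 9, and they did not overlap in 1.02% of all genes. The fitted difference was positive for 7 of the 9 genes, with a median log2 fold change of 0.46, beside 63.2% of all genes and a median of 0.10. Their spread within a genotype was wide: the median standard deviation of log2(TPM + 1) was 0.95 in wild type and 0.73 in knockout lungs, beside 0.44 and 0.31 over all genes tested. They made up between 0.0475% and 0.272% of each library's TPM.

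**Figure D1:**
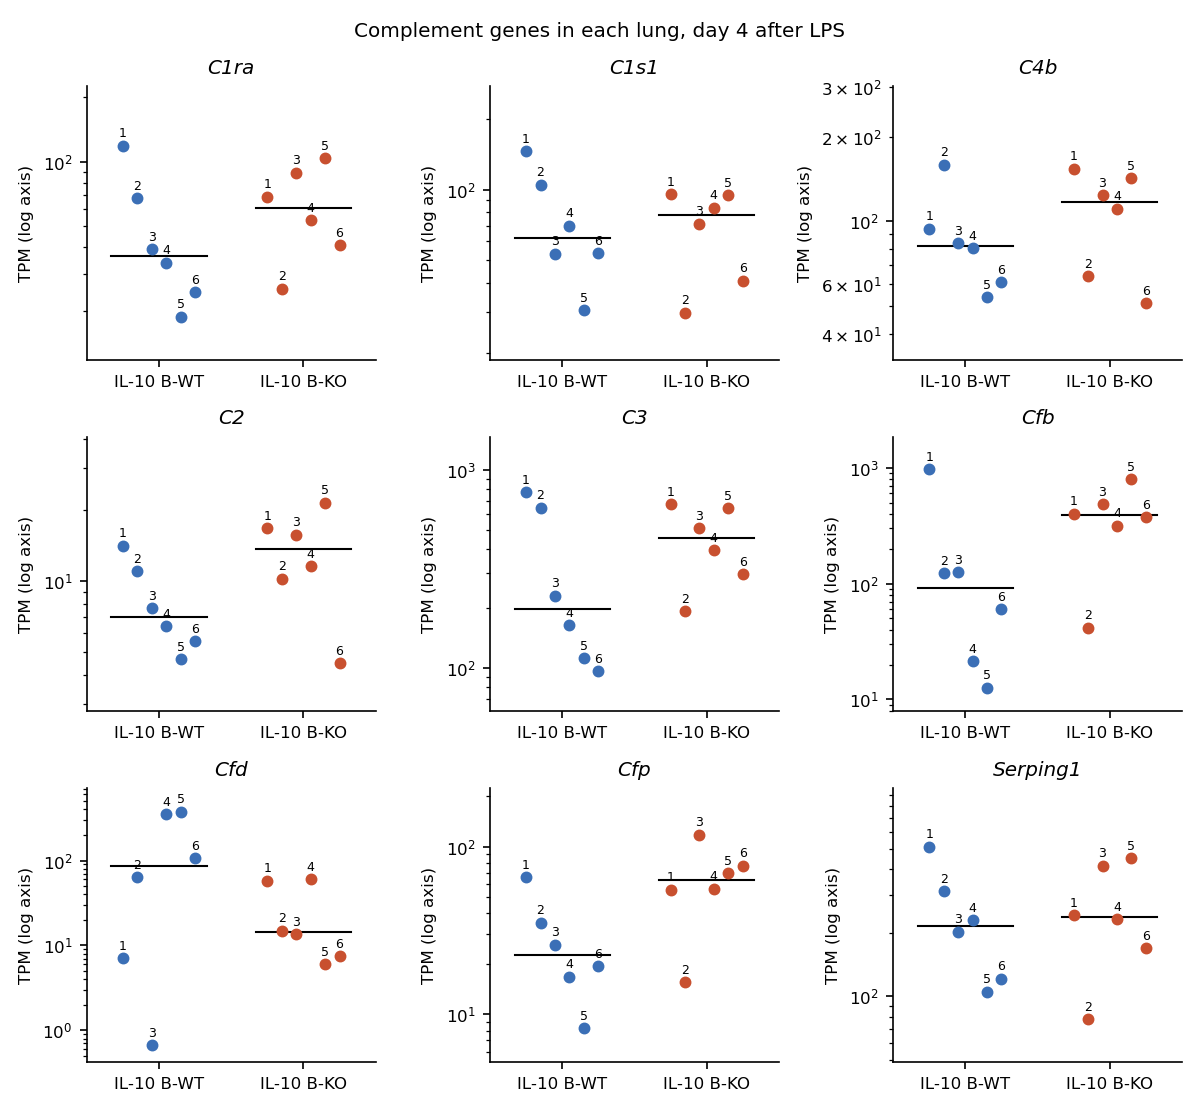
TPM of each of the 9 genes (log axis, with its own range in each panel) in the 6 wild type lungs (IL-10 B-WT, blue) and the 6 knockout lungs (IL-10 B-KO, orange), with the replicate number above each point and the median as a line. The genotypes overlap in every panel, and wild type replicate 1 and knockout replicate 2 lie on the other genotype's side in most panels, while Cfd has its highest levels in wild type replicates 4 and 5.

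The C1 proteases showed no difference beyond the spread between lungs. C1ra, which encodes the protease that activates C1s, was at 119, 67.5, 39.1, 33.8, 18.9 and 24.7 TPM in wild type replicates 1 to 6 and at 68.8, 25.6, 89.0, 53.5, 104 and 40.9 TPM in knockout replicates 1 to 6. The highest lung was a wild type one, although 5 of the 6 knockout lungs lay above the wild type median. The log2 fold change was 0.46 ± 0.44 (SE; 95% interval −0.48 to 1.40; limma adjusted p = 0.646, exact permutation p = 0.361), and it was 0.76 without wild type replicate 1, 0.24 without wild type replicate 5 and 0.29 without knockout replicate 5. C1s1, which encodes the protease that cleaves C4 and C2, was at 146, 105, 53.1, 70.1, 30.5 and 53.4 TPM in wild type and at 95.3, 29.7, 71.5, 83.6, 94.7 and 40.8 TPM in knockout lungs. The knockout values lay almost wholly inside the wild type range. Its log2 fold change was −0.08 ± 0.38 (95% interval −0.91 to 0.74; limma adjusted p = 0.935), and its sign changed when wild type replicate 1 (0.14), wild type replicate 2 (0.04), knockout replicate 2 (0.13) or knockout replicate 6 (0.04) was left out.

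C4b and C2, whose products form the classical convertase, were likewise within the spread. C4b was at 53.8 to 159 TPM in wild type lungs (median 81.9) and at 51.4 to 154 TPM in knockout lungs (median 117). The ranges were nearly the same, with a log2 fold change of 0.26 ± 0.31 (95% interval −0.41 to 0.93; limma adjusted p = 0.721, exact permutation p = 0.446). It was 0.45 without wild type replicate 2 or knockout replicate 6, 0.14 without wild type replicate 5 or knockout replicate 1, 0.17 without wild type replicate 6 and 0.16 without knockout replicate 5. C2, the lowest of the 9 genes by its median in both genotypes, was at 14.1, 11, 7.63, 6.42, 4.66 and 5.54 TPM in wild type and at 16.7, 10.2, 15.7, 11.5, 21.4 and 4.47 TPM in knockout lungs. In 3 knockout lungs the level was above every wild type lung, and in 1 it was below all of them. The log2 fold change of C2 was 0.59 ± 0.33 (95% interval −0.13 to 1.31; limma adjusted p = 0.468, exact permutation p = 0.134).

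C3, the protein on which all complement pathways converge, was at 772, 646, 232, 164, 112 and 96.5 TPM in wild type replicates 1 to 6 and at 669.6, 193, 509.9, 393, 639 and 298 TPM in knockout replicates 1 to 6. wild type replicates 1 and 2 were as high as the highest knockout lungs, and the other 4 wild type lungs lay below all knockout lungs but replicate 2. The log2 fold change was 0.76 ± 0.52 (95% interval −0.36 to 1.88; limma adjusted p = 0.531, exact permutation p = 0.219). It lay between 0.50, without wild type replicate 6, and 1.09 with 1 lung left out.

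The alternative pathway genes held both the largest positive and the largest negative fitted difference of the 9. Cfb, which encodes factor B, was at 969.5, 123, 125, 21.3, 12.6 and 60.2 TPM in wild type replicates 1 to 6 and at 401, 41.7, 485, 317, 799 and 373 TPM in knockout replicates 1 to 6. Except for 1 lung on each side, wild type replicate 1 and knockout replicate 2, every knockout lung was above every wild type lung. The log2 fold change was 1.91 ± 0.93, or 3.76-fold on the TPM + 1 scale (95% interval −0.10 to 3.92; limma adjusted p = 0.420, exact permutation p = 0.106). Cfp encodes properdin, which stabilizes the alternative convertase and is made by myeloid cells, and it was at 65.9, 35.3, 26, 16.8, 8.27 and 19.4 TPM in wild type and at 55.5, 15.5, 118, 56.3, 69.7 and 77.1 TPM in knockout lungs. In 3 knockout lungs Cfp was above every wild type lung. Its log2 fold change was 1.22 ± 0.49, or 2.33-fold (95% interval 0.16 to 2.28; limma p = 0.0271, adjusted p = 0.350; exact permutation p = 0.0584). The unadjusted limma p exceeded 0.05 when wild type replicate 4, wild type replicate 5, knockout replicate 3 or knockout replicate 6 was left out.

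Cfd, which encodes the protease that cleaves factor B, had the widest range of the 9 genes. It was at 7.03, 64.0, 0.67, 352, 376 and 107 TPM in wild type replicates 1 to 6 and at 57.9, 14.9, 13.5, 60.3, 5.97 and 7.41 TPM in knockout replicates 1 to 6. The wild type lungs thus held both the highest and the lowest level, 561-fold apart, while the knockout lungs spanned 10.1-fold inside that range. The log2 fold change was −1.34 ± 1.21 (95% interval −3.93 to 1.26; limma adjusted p = 0.630, exact permutation p = 0.364). Without wild type replicate 3, the lung at 0.67 TPM, it was −2.31 (limma adjusted p = 0.383), with an unadjusted p under 0.05, and it was −0.76 without wild type replicate 4, −0.74 without wild type replicate 5 and −0.08 with array quality weights.

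Serping1, which encodes the C1 inhibitor, was at 509.8, 314, 202, 229, 105 and 121 TPM in wild type replicates 1 to 6 and at 241, 77.6, 415, 231, 451 and 169 TPM in knockout replicates 1 to 6. Both genotypes covered nearly the same range. The log2 fold change was 0.09 ± 0.45 (95% interval −0.89 to 1.07; limma adjusted p = 0.942, exact permutation p = 0.857), and its sign changed with quantile normalization (−0.13) and with median centring (−0.02). Its sign also changed without wild type replicate 5 (−0.11), wild type replicate 6 (−0.07), knockout replicate 3 (−0.08) or knockout replicate 5 (−0.11). The interval does not exclude a difference of nearly 1 on the log2 scale in either direction, so that the protease genes and their inhibitor cannot be said to be at equal levels in the genotypes.

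With wild type replicate 1 and knockout replicate 2 both left out, 2 of the 9 genes were called, Cfb (log2 fold change 3.19, limma adjusted p = 0.00375) and Cfp (1.87, adjusted p = 0.00383), and 1430 of all genes tested. Those lungs were left out after their values were seen and lay on the side of the other genotype, which widens the difference by construction, so that these calls give no independent support. The plot of all alternatives shows how far each gene's difference moved.

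**Figure D2:**
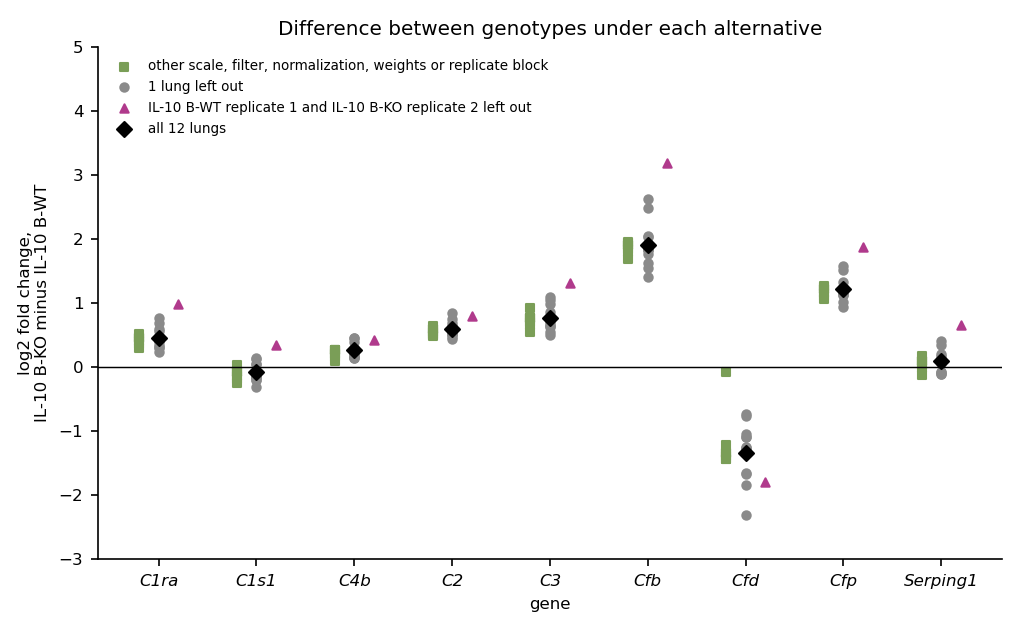
Log2 fold change (knockout minus wild type, vertical axis) of the 9 genes with all 12 lungs (black diamonds), with 1 lung left out (grey), with another scale, filter, normalization, weights or block (green) and with wild type replicate 1 and knockout replicate 2 both left out (purple). C1ra, C4b, C2, C3, Cfb and Cfp stay above 0 at each setting, Cfd stays below 0 but reaches −0.08, and C1s1 and Serping1 lie on both sides of 0.

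The order of the levels, which TPM allows since it is per length, was led by Serping1 (median 216 TPM) and C3 (198 TPM) in wild type lungs and by C3 (452 TPM) and Cfb (387 TPM) in knockout lungs. In wild type lungs Cfb (91.7 TPM), Cfd (85.7 TPM), C4b (81.9 TPM), C1s1 (61.8 TPM), C1ra (36.5 TPM), Cfp (22.7 TPM) and C2 (7.03 TPM) followed. In knockout lungs the order went on with Serping1 (236 TPM), C4b (117 TPM), C1s1 (77.5 TPM), Cfp (63.0 TPM), C1ra (61.2 TPM), Cfd (14.2 TPM) and C2 (13.6 TPM). The ranges of all neighbours in both orders overlapped. Within a lung some neighbours kept their order: C1s1 was above C1ra, C1ra above Cfp and Cfp above C2 in 6 of 6 wild type lungs, and Serping1 was above C4b and C4b above C1s1 in 6 of 6 knockout lungs.

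Apart from Cfd, the genes tended to be high or low in the same lungs. The 8 genes without Cfd were all among the 6 highest of the 12 lungs in wild type replicate 1 and in knockout replicates 1, 3, 4 and 5, and none was in knockout replicate 2. wild type replicate 5 was among the lowest 3 lungs for all 8. Over the 28 pairs of these 8 genes, Pearson's r of log2(TPM + 1) across the 12 lungs was 0.55 to 0.94 (median 0.80) and Spearman's rho 0.38 to 0.94. Of the 28, 25 had a permutation p of at most 0.05 for r after Benjamini-Hochberg adjustment over all 36 pairs, and 24 had one for rho. The closest pairs were C1ra with Serping1 (r = 0.94, rho = 0.94), C3 with C1ra (r = 0.94, rho = 0.93) and Cfb with Cfp (r = 0.94, rho = 0.89), each with an adjusted permutation p of 0.00048 for r and of at most 0.0018 for rho. Without the 2 lungs farthest from the median of the first gene, r was 0.91, 0.92 and 0.90 for these pairs and 0.23 to 0.92 over all 28, the lowest being that of Cfp with C1s1, which was 0.60 over the 12 lungs. Each of the 28 was positive within both genotypes, at 0.52 to 0.99 in the wild type and 0.13 to 0.98 in the knockout lungs. The neighbours C1ra and C1s1 had r = 0.86 and rho = 0.82 (adjusted permutation p = 0.00264 and 0.00636). Without the 2 farthest lungs r was 0.75.

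Cfd departed from this. Its r with the other 8 genes was −0.64 to −0.13, and 1 of these 8 pairs passed the adjustment, that with Cfb (r = −0.64, permutation p adjusted over 36 pairs 0.0396; rho = −0.73, adjusted p = 0.0153). That relation was −0.27 without the 2 farthest lungs, −0.75 within wild type and −0.11 within knockout, so that it rests on few lungs. The ratio of Cfd to each of the 8 other genes differed by a mean of −3.25 to −1.25 (knockout minus wild type) on the log2 scale, and none of the 8 ratios passed an exact permutation test (adjusted p over the 8 ratios 0.384 to 0.426).

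**Figure D3:**
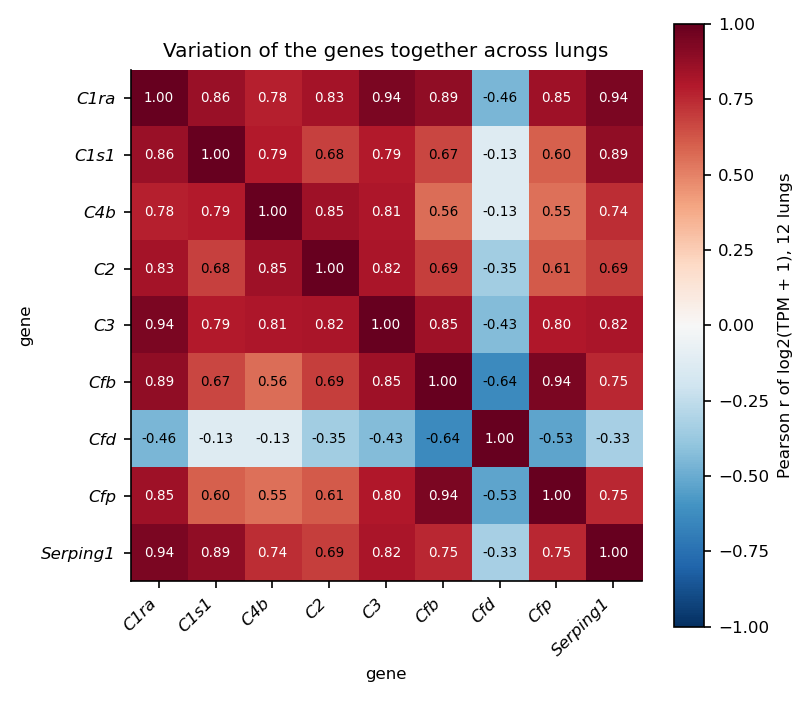
Pearson's r of log2(TPM + 1) between each pair of the 9 genes across the 12 lungs (colour scale from −1 to 1, values in the cells). The 28 pairs without Cfd lie between 0.55 and 0.94, and the row of Cfd lies between −0.64 and −0.13.

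The levels also moved with markers of other cells and of the inflammatory response in the same lungs. Over 117 pairs of a gene and a marker list, the closest were Cfd with the 6 adipocyte genes (Adipoq, Plin1, Cidec, Retn, Lep and Car3; r = 0.98, rho = 0.97) and Cfb with the acute phase and NF-kB response genes (Saa3, Lcn2, Il6, Tnf, Il1b and Socs3; r = 0.98, rho = 0.93), with permutation p adjusted over the 117 pairs of 2.92e-04 for r and 0.00175 for rho in both. The unadjusted permutation p of 1e-05 for r is the smallest that 100000 resamples can give. Within genotypes r was 0.97 and 1.00 for Cfd and 1.00 and 0.97 for Cfb, in wild type and knockout, and without the 2 farthest lungs 0.99 and 0.97. The adipocyte genes summed to 4.60 to 361 TPM in wild type and 7.79 to 50.6 TPM in knockout lungs. Of the 6, 5 passed the filter, all with a negative fold change, and none had an unadjusted limma p of at most 0.05. In wild type replicates 3 and 5 they were lowest and highest, as Cfd was. The acute phase genes had a positive fold change in 6 of 6, 2 of them at an unadjusted p of at most 0.05. Il6 passed the filter mainly through the knockout lungs, since wild type replicate 1 alone of the wild type lungs reached 1 TPM. The acute phase sums were up to 1219 TPM in 6 lungs and 4805 TPM or more in the other 6. The lower 6 were wild type replicates 2 to 6 and knockout replicate 2, so that this division nearly follows genotype. Saa3 and Lcn2 together made up most of the acute phase sum in each lung. Lists were summed as TPM, so that the genes of highest TPM weigh most. Within the lower 6 lungs, a division chosen after seeing the sums, r with Cfb was 0.99 and rho 1.00 (exact permutation p over 4 relations adjusted to 0.0111 for both), and with Cfp 0.90 and 0.89 (adjusted exact permutation p = 0.0389 and 0.0667). Within the upper 6 they were 0.62 and 0.43 for Cfb and 0.57 and 0.60 for Cfp (adjusted exact permutation p of 0.189 or more). The sums of the upper lungs cover a narrower range, and whether the relation differs between the lower and upper lungs was not tested.

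**Figure D4:**
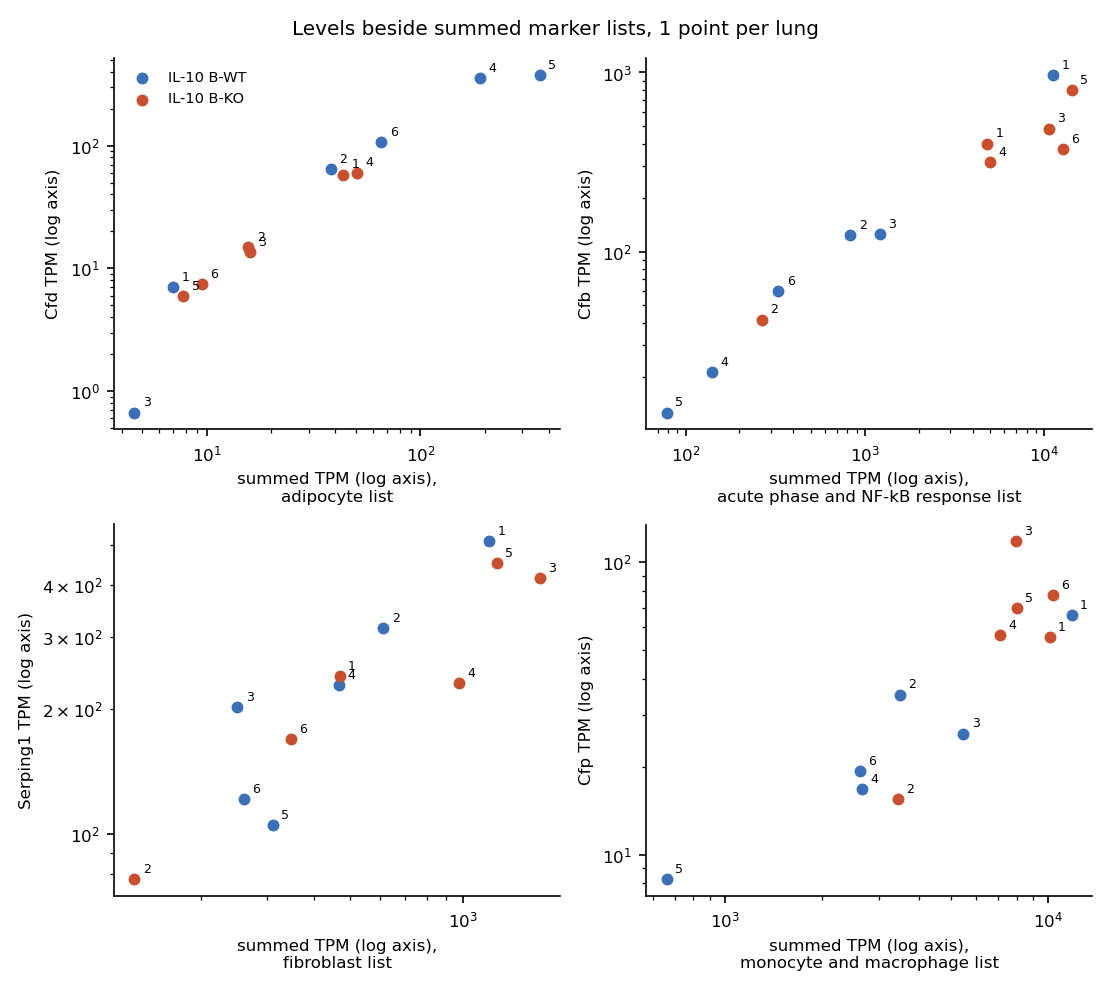
TPM of Cfd, Cfb, Serping1 and Cfp (vertical log axes) against the summed TPM of a marker list (horizontal log axes) in each lung, wild type in blue and knockout in orange, with replicate numbers. Cfd follows the adipocyte sum from 0.67 TPM to 376 TPM along 1 line for both genotypes, and wild type replicate 1 lies among the knockout lungs for Cfb and Cfp. The 6 lungs with the lowest acute phase sums lie along 1 line for Cfb, and the upper 6 are more scattered.

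The lists were shared between genes: of the 117 pairs, 31 passed the adjustment for both r and rho, among them 7 of Cfb, 6 of Cfp and 6 of C1ra, and no test was made of whether a list is particular to a gene named beside it. The following are examples (each given with the adjusted permutation p for r and rho, and r without the 2 farthest lungs). Cfp moved with the acute phase genes (r = 0.96, rho = 0.94; adjusted permutation p = 2.92e-04 and 0.00234; r = 0.95 without) and with 8 monocyte and macrophage markers (r = 0.89, rho = 0.84; adjusted permutation p = 0.00182 and 0.00987; r = 0.85 without). Cfb moved with the same monocyte and macrophage markers (r = 0.92, rho = 0.92; adjusted permutation p = 2.92e-04 and 0.00257; r = 0.91 without). Those 8 markers summed to 662 to 11847 TPM in wild type and 3429 to 10370 TPM in knockout lungs, and all had a positive fold change, 5 at an unadjusted p of at most 0.05. Lyz2 alone made up most of this sum, at 611 to 11126 TPM in wild type and 3293 to 9749 TPM in knockout lungs. The r and rho with this list therefore mainly follow Lyz2. Serping1 moved with 7 fibroblast markers (r = 0.90, rho = 0.90; adjusted permutation p = 0.00175 and 0.00257; r = 0.84 without). Their sum had a median of 389 TPM in wild type and 721 TPM in knockout lungs and reached 1172 TPM and 1598 TPM, with 4 genes higher and 3 lower, 1 of these at an unadjusted p of at most 0.05. C3 moved with 4 mesothelial markers (r = 0.90, rho = 0.85; adjusted permutation p = 0.00136 and 0.00855; r = 0.82 without), which summed to 7.03 to 90.3 TPM in wild type and 47.1 to 135 TPM in knockout lungs. Of these 4, 3 passed the filter, and all 3 were higher at an unadjusted p of at most 0.05. Lrrn4 was at 0.1 to 1 TPM in wild type and 0.38 to 4.61 TPM in knockout lungs. It passed the filter mainly through the knockout lungs, where it is higher, so that its place in this count gives no support. Msln alone made up most of the mesothelial sum, at 4.39 to 85.5 TPM in wild type and 30.7 to 128 TPM in knockout lungs. The r and rho with the mesothelial list therefore mainly follow Msln. Cfp, C1ra, C2 and Cfb also moved with the mesothelial markers (r = 0.84, 0.84, 0.83 and 0.82; rho = 0.78, 0.90, 0.83 and 0.78), with an adjusted permutation p of at most 0.0104 for r and 0.0194 for rho and r of 0.86, 0.84, 0.94 and 0.64 without the 2 farthest lungs. C3, Cfp, C1ra and Cfb moved against 5 endothelial markers (r = −0.92, −0.92, −0.89 and −0.89; rho = −0.87, −0.83, −0.90 and −0.84), with an adjusted permutation p of at most 0.00214 for r and 0.0103 for rho and r of −0.88, −0.89, −0.84 and −0.86 without the 2 farthest lungs. The endothelial sum was 1214 to 2492 TPM in wild type and 1254 to 2226 TPM in knockout lungs, with 5 of 5 genes lower, 1 at an unadjusted p of at most 0.05.

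The remaining lists serve as a check of what else the lungs held. Hepatocyte genes, the liver source of plasma complement, summed to no more than 15.4 TPM in wild type and 6.94 TPM in knockout lungs. The 8 neutrophil genes summed to 336 to 2462 TPM in wild type and 1107 to 7635 TPM in knockout lungs, all higher and 6 at an unadjusted p of at most 0.05. The 7 alveolar type 2 genes summed to 3343 to 17632 TPM and 12227 to 22005 TPM, all higher and 5 at that p. The 13 interferon response genes summed to 289.9 to 6019 TPM and 497 to 5820 TPM, all higher and 0 at that p. The 5 T cell genes summed to 12.8 to 112 TPM and 17.8 to 119 TPM, 3 higher and 2 lower. All 5 B cell markers were lower at that p. Over the 12 lungs, 0 of the 9 genes passed the adjustment for both r and rho with their sum. Apart from Cfd, r was 0.14 (Cfb) to 0.84 (C4b) within wild type and −0.95 (C1s1) to −0.63 (Cfp) within knockout lungs. For Cfd it was −0.06 and −0.34. In knockout replicates 2 and 6 the B cell sum was 64.0 and 39.4 TPM, and 3.37 to 6.91 TPM in the others. The values within a genotype were not tested. The part of these cells and responses in the levels of the complement genes was not tested.

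Genes with the most alike pattern, by Pearson's r over the 12 lungs after centring each genotype on its mean, were Car3 (0.98) and Adipoq (0.95) for Cfd, Tent5a (0.99) and Ifi30 (0.99) for Cfb, Capg (0.98) for Cfp, and Hnrnpd (0.98) and Atf1 (0.98) for C1ra. For the others they were Aldh18a1 (0.97) and Dscc1 (0.95) for C3, Siah2 (0.96) and Atf5 (0.95) for C4b, Ccdc171 (0.94) and Lhpp (0.93) for C2, Lsm2 (0.96) for C1s1, and Ndufa10 (0.97) and Tspan5 (0.96) for Serping1. None of these genes was called between the genotypes. Each was the highest or next highest coefficient over all genes tested, and likeness over 12 lungs is a description of these lungs only.

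The rest of the pathway was read from 47 other complement genes, of which 29 passed the filter on low TPM and 18 did not, among them the terminal components C8a, C8b, C8g and C9, the lectins Mbl1 and Mbl2 and the inhibitor Cfi. None of the 29 was called, beside 0.495% of all genes. At an unadjusted limma p of at most 0.05, 8 of 29 were higher in knockout lungs and 4 were lower, beside 6.83% and 5.71% of all genes. Of the 4 lower genes, Masp1 and Cr2 reached 1 TPM in knockout replicate 2 alone of the knockout lungs. They thus passed the filter mainly through the wild type lungs, where they are higher, and their place in this count gives no support. Among receptors 5 of 8 were higher: C3ar1, the receptor of the fragment C3a, was at 1.06 to 36.3 TPM (median 3.21) in wild type and 3.20 to 72.7 TPM (median 35.1) in knockout lungs, with a log2 fold change of 2.33 (adjusted p = 0.292). C5ar1, which binds C5a and attracts neutrophils, had a log2 fold change of 1.82 (adjusted p = 0.275) and C5ar2 of 0.78 (adjusted p = 0.328). Itgam and Itgb2, the chains of complement receptor 3 on neutrophils and macrophages, had 2.35 (adjusted p = 0.290) and 1.33 (adjusted p = 0.375). Cr2, a receptor of B cells, was lower at −1.60 (adjusted p = 0.328), beside the lower B cell markers. It was at 0.62 to 29.1 TPM in wild type and 0 to 1.88 TPM in knockout lungs.

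Among recognition genes, C1qa, C1qb and C1qc, the chains of C1q, which macrophages make, had log2 fold changes of 1.36, 1.65 and 1.48 (exact permutation p = 0.0455, 0.0303 and 0.0390, limma adjusted p = 0.330, 0.304 and 0.321). C1qb was above every wild type lung in 4 of the 6 knockout lungs, at 105 to 729 TPM against 37.4 to 399.9 TPM. Masp1, a protease of the lectin pathway, had a log2 fold change of −0.70 (adjusted p = 0.236). Its level was low, at 0.68 to 2.8 TPM in wild type and 0.38 to 1.43 TPM in knockout lungs. The smallest p-values were those of Vtn, which encodes vitronectin, an inhibitor of the terminal complex, at 6.48 to 44.2 TPM in wild type and 1.9 to 11.4 TPM in knockout lungs (log2 fold change −2.0, adjusted p = 0.0796), and of C7, a component of the terminal complex, at 22.1 to 58.8 TPM and 8.25 to 25.1 TPM (−1.16, adjusted p = 0.108). C7 was below every wild type lung in 5 of 6 knockout lungs. None of 6 membrane regulators had an unadjusted p of at most 0.05, and C4a, the near copy of C4b, was at 0.08 (adjusted p = 0.884), with its sign reversed by median centring. Without wild type replicate 1, 6 of the other complement genes were called: C3ar1, C5ar1, Itgam and Itgb2 higher, and Vtn and C7 lower.

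**Figure D5:**
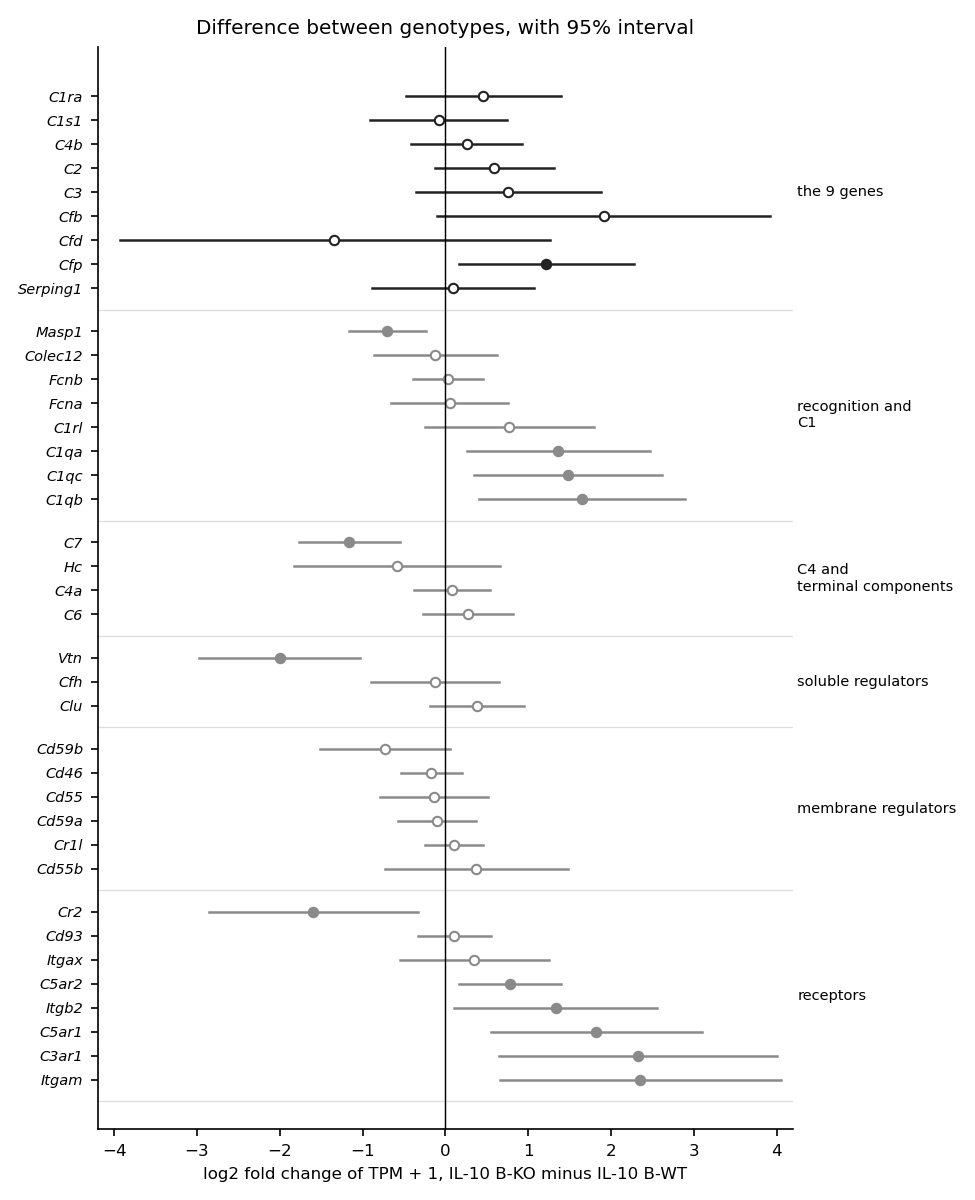
Log2 fold change of TPM + 1 (knockout minus wild type, horizontal axis) with its 95% interval from limma for the 9 genes (black) and the 29 other complement genes tested (grey), grouped by role. Filled points have an unadjusted p of at most 0.05: Cfp alone of the 9, the C1q chains and most receptors to the right, and Masp1, C7, Vtn and Cr2 to the left.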

How the data were processed

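Whole-lung RNA was sequenced from 6 IL-10 B-WT mice (wild type) and 6 IL-10 B-KO mice (knockout), with 1 library per lung. The authors deposited TPM, computed per gene with RSEM and rounded to 2 decimals, in 1 table of 55414 genes, without pooling. The submitters' processing notes also name fastp, HISAT and GRCm38.p5, with no versions or roles. TPM keep no depth, so that no counting error, detection limit or count model could be had, and the precision rests on the spread between lungs. All values of a library share 1 total, so that a gene group of large share lowers the others. Immunoglobulin genes took 0.248% to 15.4% of TPM in wild type and 0.00199% to 0.0647% in knockout lungs.

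Columns were matched to samples by name, and 0 columns were left unused. Genotypes were compared by limma 3.58.1 (R 4.3.3; lmFit, then eBayes with trend) on log2(TPM + 1), genotype being the sole term. The 15148 genes tested reached 1 TPM in 6 libraries or more, and p-values were adjusted over all of them by Benjamini-Hochberg. A gene was called at an adjusted p of 0.05 or less with a log2 fold change of 1 or more in size, a scale that understates the change of low genes. For single genes an exact two-sided permutation test of 6 lungs against 6 was added (924 arrangements, smallest p 0.00216). Correlations between lungs used 100000 resamples. The table's gene IDs were matched to GENCODE M21 on GRCm38 (52133 of 55414, and 9 of the 9 genes), which gave coordinates. Transcript identities used edlib 1.3.9.post1. RefSeq promoter windows matched 5 of the 9 genes. Other steps ran in Python 3.11.15 with SciPy 1.17.1, pandas 2.3.3, NumPy 2.4.6 and matplotlib 3.10.9. The limma step was tested on simulated data.

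Named were the 9 genes, other complement genes with an unadjusted p of at most 0.05 or no overlap, the near copies C4a, C1rb and C1s2, the 2 genes most like each of the 9 (for Cfp and C1s1, 1 of the 2 is not reported here), marker genes, Il10 and Cd79a. The 9 genes and the lists were chosen with earlier results of these data known. The limma counts and fold changes were computed again with 0.1 as the pseudocount, without a filter, at a mean of 5 TPM or more, after rescaling with immunoglobulin genes left out, after quantile normalization or median centring, with array quality weights, with a block for replicate number, and with single lungs left out. The exact tests, correlations, ratios, orders of level and likeness were not computed again under these settings. No 2 libraries were identical. The labels do not state litters, batches or days, and replicate numbers were treated as names.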

Additional observations from a re-analysis of the deposited data

Results flagged for a closer look

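Cfb in wild type replicate 1, at 969.5 TPM, lay far from the other 5 wild type lungs, which were at 12.6 to 125 TPM. On the TPM scale the gap to the nearest lung was 0.883 of the whole range, above Dixon's 95% critical value for 6 samples. On the log2(TPM + 1) scale of the tests the gap is a smaller part of the range, below that value, so that the flag holds for TPM alone. Of 18 groups examined (9 genes in 2 genotypes), this was the only one past that value. For normally distributed values chance gives about 1 in 20, a rate that TPM need not follow. The groups are also not independent, since most of the genes varied together. In the same lung the acute phase and NF-kB response genes were also the highest of the wild type lungs, at 11266 TPM.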

How the results depend on the processing

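With each setting named here and each single lung left out, 0 of the 9 genes were called, except where stated. Of all genes tested, 75 were called, and 6 with no filter, 27 on rescaling without immunoglobulin genes, 39 with quantile normalization, 36 with median centring, 318 with array quality weights, 45 with the replicate number as a block and 15 to 576 with 1 lung left out (576 without wild type replicate 1). Of the 75, 4 were higher and 71 lower, and with array quality weights 81 and 237. Median centring moved the median of all genes from 0.10 to −0.01 and quantile normalization to 0.01. At an unadjusted p of at most 0.05, 1 of the 9 genes passed, 2 with array quality weights and 0 to 4 with 1 lung left out: 4 (C2, C3, Cfb and Cfp) without wild type replicate 1, 2 without wild type replicate 3 or knockout replicate 2, and 0 without wild type replicate 4, wild type replicate 5 or knockout replicate 3. Of the other complement genes, 0 were called, 4 with array quality weights (C7, Vtn, C5ar1 and Itgam) and 0 to 6 with 1 lung left out (6 without wild type replicate 1). With wild type replicate 1 and knockout replicate 2 both left out, an alternative chosen after seeing the data, 1430 of all genes, 2 of the 9 genes (5 at an unadjusted p of at most 0.05) and 11 of the other complement genes were called.

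Signs reversed for Serping1 (−0.13 with quantile normalization, −0.02 with median centring, −0.11 to 0.40 with 1 lung left out), C1s1 (0.03 with array quality weights, 0.35 with both lungs left out, −0.31 to 0.14 with 1 lung left out) and C4a (−0.03 with median centring, −0.03 to 0.20 with 1 lung left out). The values of single lungs left out were −0.11, −0.07, −0.08 and −0.11 for Serping1, 0.14, 0.04, 0.13 and 0.04 for C1s1, and −0.02 and −0.03 for C4a. The cause was not tested. Same-numbered lungs did not deviate together (correlation −0.29 to 0.05 over 6 numbers, 0 of 6 best with its own number). No pairing by number was seen, but this cannot exclude a small effect of a shared litter, day or batch. The block changed no call among the 9 genes or the other complement genes. TPM give no depth, so that how far low values such as those of C2, C4a and Cfd at 0.67 TPM reflect few reads is unknown.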
